A study of Homo sapiens with 2 samples.

Results

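Transcripts of 5 bone morphogenetic protein (BMP) ligand genes (*BMP2*, *BMP3*, *BMP4*, *BMP6*, and *BMP7*), the receptor gene *BMPR1B*, and 4 target genes of the pathway (*ID1*, *ID2*, *ID3*, and *SMAD6*) were analyzed by single-cell RNA sequencing in HCT116 cells, a human colon cancer cell line. These 10 genes were found by their names among the 33538 genes listed for both libraries, and each name occurred for 1 Ensembl identifier. The groups were mock-treated cells and cells treated with 0.5 μM of decitabine (DAC), a cytidine analog that is built into DNA and inhibits its methylation. The schedule ran over 7 days, with DAC doses on the days numbered 1 and 3 and drug-free culture from day 5 until collection. Each group was 1 library of the same line, so a difference between the groups cannot be told apart from a difference between the cultures or library preparations.

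BMP ligands are secreted proteins of the TGF-β superfamily that bind a complex of type I and type II receptor kinases. The type I receptors, which include BMPR1B, phosphorylate SMAD1, SMAD5, and SMAD9, which enter the nucleus with SMAD4 and act on target genes. *ID1*, *ID2*, and *ID3* are direct targets and encode helix-loop-helix proteins without a DNA-binding region, which bind E proteins and keep them from DNA. *SMAD6* encodes an inhibitory SMAD that acts back on the receptors. In the colon, BMP signaling is known for its activity toward the top of the crypt, where cells differentiate, and its loss is found in juvenile polyposis.

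The positions of the genes are given for hg38, the build to which the authors mapped the reads. Among the ligand genes, *BMP2* was located on chromosome 20 from 6767686 to 6780246, *BMP3* on chromosome 4 from 81030708 to 81057627, *BMP4* on chromosome 14 from 53949736 to 53958761, *BMP6* on chromosome 6 from 7726099 to 7881728, and *BMP7* on chromosome 20 from 57168753 to 57266641. *BMPR1B* extended on chromosome 4 from 94757955 to 95158448. Of the target genes, *ID1* was located on chromosome 20 from 31605283 to 31606515, *ID2* on chromosome 2 from 8678845 to 8684461, *ID3* on chromosome 1 from 23557926 to 23559501, and *SMAD6* on chromosome 15 from 66702236 to 66782849. A gene without a symbol overlapped *SMAD6* on the same strand, and annotated genes on the opposite strand overlapped *BMP4*, *BMP6*, *BMP7*, and *ID2*. Whether strand was used in counting is not given in the sources used here, so the counts of these genes can include reads of the overlapping ones.

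Sequences before transcription start sites were taken from a table of RefSeq promoters (GRCh38.p14), in which 7 of the 10 genes were matched, namely *BMP4*, *BMP6*, *BMPR1B*, *ID1*, *ID2*, *ID3*, and *SMAD6*. Since DAC acts on the methylation of CpG sites, these were counted in the 250 bases before each start. The median over 35116 such windows was 11.0 CpG sites. The windows of *BMPR1B*, *ID1*, and *ID3* are shown with CpG sites in capitals, because *BMPR1B* had no UMI in mock-treated cells while *ID1* and *ID3* were abundant there and differed in opposite directions.

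BMPR1B, chr4:94757705-94757954, plus strand: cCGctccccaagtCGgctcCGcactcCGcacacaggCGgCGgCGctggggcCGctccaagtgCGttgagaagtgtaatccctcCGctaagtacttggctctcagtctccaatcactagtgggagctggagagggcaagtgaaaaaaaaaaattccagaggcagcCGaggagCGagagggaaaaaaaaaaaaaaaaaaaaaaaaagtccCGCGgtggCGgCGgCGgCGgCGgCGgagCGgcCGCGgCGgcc

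ID1, chr20:31605039-31605288, plus strand: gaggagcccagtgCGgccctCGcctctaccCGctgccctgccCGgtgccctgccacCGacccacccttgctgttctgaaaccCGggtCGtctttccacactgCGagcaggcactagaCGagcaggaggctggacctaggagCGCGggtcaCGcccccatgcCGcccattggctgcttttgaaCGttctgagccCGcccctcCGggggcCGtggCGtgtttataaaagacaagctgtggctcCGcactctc

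ID3, chr1:23559502-23559751, minus strand: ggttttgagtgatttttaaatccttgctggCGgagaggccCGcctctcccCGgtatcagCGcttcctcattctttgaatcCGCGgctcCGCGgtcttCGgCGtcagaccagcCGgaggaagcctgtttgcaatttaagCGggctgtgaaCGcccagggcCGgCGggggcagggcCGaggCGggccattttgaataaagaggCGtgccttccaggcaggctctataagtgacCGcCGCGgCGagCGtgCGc

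*BMPR1B* had 24 CpG sites in this window, and so had *ID3*, and 76.3% of all windows had fewer. *ID1* had 19 CpG sites, and 65.4% of all windows had fewer. *BMPR1B*, not detected in mock-treated cells, and the abundant target *ID3* thus had equal CpG counts before these starts. *BMPR1B* had another 2 starts in RefSeq, with 2 and 7 CpG sites in their windows. *BMP6* had 26 CpG sites, *ID2* had 29, and *SMAD6* had 25, and the windows of the 3 starts of *BMP4* had 25, 17, and 27.

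The windows were also searched on both strands for GGCGCC, a GC-rich element bound by SMAD1 and SMAD5, and for GTCTAGAC, the palindromic element bound by SMAD3 and SMAD4. GGCGCC was found in 16.4% of all windows and GTCTAGAC in 0.182%. Each was present in 1 window of the 7 genes, and these windows are shown with the matches in capitals. A match describes the letters and not a binding site, and the lack of one says only that these letters are not in the window.

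BMP4, chr14:53955051-53955300, minus strand: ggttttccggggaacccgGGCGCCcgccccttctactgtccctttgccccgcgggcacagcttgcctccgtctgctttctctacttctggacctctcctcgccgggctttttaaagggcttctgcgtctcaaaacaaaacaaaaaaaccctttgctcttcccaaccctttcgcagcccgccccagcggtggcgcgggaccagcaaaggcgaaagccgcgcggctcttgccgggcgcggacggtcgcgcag

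SMAD6, chr15:66701986-66702235, plus strand: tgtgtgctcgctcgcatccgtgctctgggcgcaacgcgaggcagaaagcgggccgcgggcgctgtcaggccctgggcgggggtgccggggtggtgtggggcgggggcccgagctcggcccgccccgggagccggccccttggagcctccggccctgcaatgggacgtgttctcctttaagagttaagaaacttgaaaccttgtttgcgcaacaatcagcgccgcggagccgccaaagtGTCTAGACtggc

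Transcripts were counted at their 3′ ends as unique molecular identifiers (UMIs), 1 per captured molecule, so that counts were not divided by transcript length. A total of 49911689 UMIs was counted over 1783 mock-treated cells, and 59046165 UMIs over 1751 DAC-treated cells, at medians per cell of 27899 and 35340. Of these cells, 311 and 319 took more than 50% of their UMIs from mitochondrial genes, and 12 barcodes were present in both libraries. The epithelial markers *EPCAM*, *KRT8*, *KRT18*, *KRT19*, *CDH1*, and *VIL1* were all detected, with a summed level of 4935 UMIs per 1000000 UMIs of the library (CPM) in mock-treated and 7953 CPM in DAC-treated cells. The higher sum came mostly from *KRT8* (1094 and 1895 CPM) and *KRT18* (2030 and 4280 CPM), while *EPCAM* was at 349.0 and 221.8 CPM and *CDH1* at 23.1 and 21.1 CPM. The sums were 10.8 and 19.9 CPM for 5 fibroblast markers, mostly *COL1A1*, 0.401 and 1.86 CPM for 5 immune markers, and 0.220 and 1.95 CPM for 4 endothelial markers. In mock-treated cells, *COL1A2*, *DCN*, and *LUM*, *PTPRC* and *CD3E*, and *PECAM1* and *CDH5* were at 0. Of the markers of other cell types with enough UMIs, *DCN*, *PDGFRB*, *CD3E*, *CD79A*, *LYZ*, *PECAM1*, and *VWF* were 2-fold higher or more in DAC-treated cells, at 0.271 to 1.05 CPM, as were 22.8% of all genes. *DCN*, *CD3E*, and *PECAM1* reached the minimum of 20 UMIs over both libraries through DAC-treated cells alone, so that their calls followed from it. Whether this had a part in the values of the BMP pathway genes was not tested.

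Levels of DAC-treated and mock-treated cells were compared by the ratio of CPM, with an exact 95% confidence interval for counting error only. With 1 library per condition and cells that are not replicates, the conditions could not be tested against each other, and no p-value is given. A gene was called higher or lower when its CPM differed 2-fold or more, among genes with 20 UMIs or more over both libraries. Of the 10 genes, 8 reached this number, and *BMP2* and *BMP3* did not. *BMP4*, *BMP7*, and *BMPR1B* were called higher in DAC-treated cells, as were 22.8% of all 17368 genes that reached it. *BMPR1B* reached 20 UMIs through DAC-treated cells alone, so its call followed from the filter, and it enters the median below at its lower limit. *ID1* was called lower, as were 7.86% of all genes. The median log2 ratio over all these genes was 0.29, and it was 1.12 over *BMP4*, *BMP6*, *BMP7*, and *BMPR1B* and 0.25 over the 4 target genes.

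**Figure D1:**
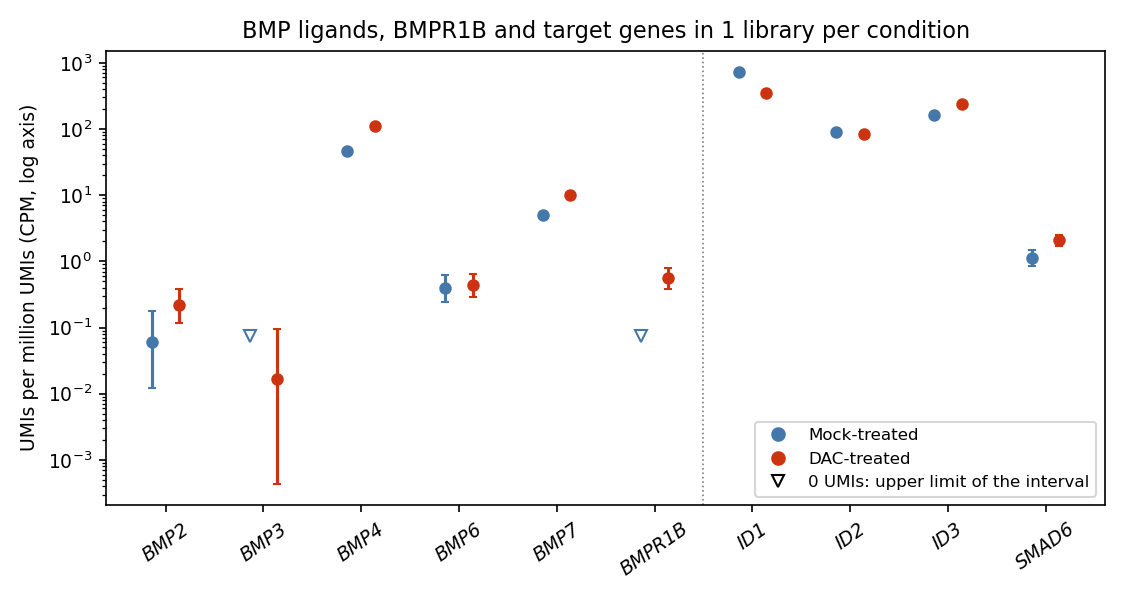
CPM of each gene (log axis) in the mock-treated (blue) and DAC-treated (red) library, with exact Poisson 95% confidence intervals, and open triangles at the upper limit of the interval for genes with 0 UMIs. To the left of the dotted line are ligands and the receptor, where *BMP4* was at 46.9 and 110.9 CPM, and to the right the targets, where *ID1* was at 733.3 and 351.4 CPM.

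Of the ligand genes, *BMP4*, the one of these 5 with the most transcripts, which encodes a ligand of the BMP2 and BMP4 group, had 2341 UMIs in mock-treated cells (46.9 CPM, 95% confidence interval 45.0 to 48.8) and 6549 after DAC (110.9 CPM, 108.2 to 113.6). The intervals did not overlap, and the level was 2.36-fold higher in DAC-treated cells (2.26 to 2.48). The transcript was found in 683 mock-treated cells (38.3%, interval 36.0 to 40.6%) and 1062 DAC-treated cells (60.7%, 58.3 to 62.9%). A count of 3 UMIs or more was reached by 13.9% of the former and 37.9% of the latter, and the highest counts were 42 and 51.

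Because DAC-treated cells had more UMIs, 10000 UMIs were also drawn at random from each cell. Fewer than that were present in 395 mock-treated and 458 DAC-treated cells, which were not used for it. At this equal depth, *BMP4* was detected in 26.4% of mock-treated cells (24.1 to 28.8%) and 50.3% of DAC-treated cells (47.5 to 53.0%). Its UMIs were unevenly distributed among cells in both libraries. The 5% of cells with the most *BMP4* UMIs held 48.0% of them in mock-treated and 34.0% in DAC-treated cells. With *BMP4* UMIs spread over cells in proportion to their totals, 667.6 mock-treated and 407.6 DAC-treated cells would lack one. The observed numbers were 1100 and 689.

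*BMP7*, which encodes a further ligand of the type I and II receptors, was at much lower levels. It had 247 UMIs in mock-treated cells (4.95 CPM, 4.35 to 5.61) and 587 UMIs in DAC-treated cells (9.94 CPM, 9.15 to 10.8). The ratio was 2.01 (1.73 to 2.34), so the gene was at the edge of the 2-fold limit. It was below it under 6 of 8 processing alternatives, with log2 ratios from 0.82 to 0.99, the lowest with median-of-ratios scaling, in which the median abundant gene is set to a ratio of 1 and every log2 ratio is lower by 0.18. The gene was detected in 12.0% of mock-treated cells (10.5 to 13.6%) and 21.4% of DAC-treated cells (19.5 to 23.4%), and at equal depth in 5.19% (4.08 to 6.49%) and 9.82% (8.25 to 11.6%). *BMP4* and *BMP7* were detected together in 6.17% of mock-treated (110) and 18.3% of DAC-treated (320) cells.

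The other 3 ligand genes were close to the limit of detection. *BMP6*, known for its role in iron homeostasis through hepcidin, had 20 UMIs in mock-treated and 26 UMIs in DAC-treated cells, and the interval of its ratio of 1.10 reached from 0.590 to 2.08, so at this depth no difference was detectable, and its direction turned with median-of-ratios scaling (log2 ratio -0.05). *BMP2*, the ligand most similar to BMP4, had 3 UMIs in mock-treated cells (0.619 to 8.77) and 13 after DAC (6.92 to 22.2), a ratio of 3.66 with an interval that began at 1.01. *BMP3*, which encodes an atypical member known to antagonize other BMPs, had 0 UMIs in mock-treated cells and 1 UMI in DAC-treated cells, and no ratio is given. No cell of either library had 3 UMIs or more of *BMP2*, *BMP3*, or *BMP6*.

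*BMPR1B*, a type I receptor, was not detected in mock-treated cells (0 of 1783 cells, which by 3 counts allows a share of up to 0.168% of cells with a UMI and sets no limit on cells that express the gene), whereas DAC-treated cells had 33 UMIs, found in 31 cells (1.77%, interval 1.21 to 2.50%). Measured against 3 counts over the mock-treated library, its CPM after DAC was at least 9.30-fold higher. No cell had more than 2 UMIs, and 1720 DAC-treated cells had none. A spread in proportion to the cells' totals gives 1718. With so few UMIs, nearly all cells lack one under any spread, so these numbers cannot tell spreads apart. At equal depth, 3 UMIs were left in DAC-treated cells, which is no more than a count of 0 allows, so that the libraries could not be told apart there. No cell type that should lack the gene was present in these libraries, and the part of free RNA in these 33 UMIs was not tested.

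Summed over the ligand genes and *BMPR1B*, there were 2611 UMIs in mock-treated and 7209 UMIs in DAC-treated cells, a CPM ratio of 2.33 (2.23 to 2.44), and *BMP4* held most of it. Without *BMP4*, the ratio was 2.07. None of the 6 genes was detected in 986 mock-treated cells (55.3%, 53.0 to 57.6%) and 629 DAC-treated cells (35.9%, 33.7 to 38.2%). A total of 3 of them were detected together in 1 mock-treated cell and 28 DAC-treated cells, and 4 of them in 1 DAC-treated cell.

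Of the target genes, *ID1* was the most abundant of the 10 genes in both libraries and the only one called lower. It had 36600 UMIs in mock-treated cells (733.3 CPM, 725.8 to 740.8) and 20749 UMIs in DAC-treated cells (351.4 CPM, 346.6 to 356.2). The level was 2.09-fold lower in DAC-treated cells (2.05 to 2.12), and the log2 ratio was -0.99, just short of the 2-fold limit, without cells above 20% mitochondrial UMIs. Of all the genes compared, 7.01% had a log2 ratio as low as that of *ID1*, -1.06, or lower. *ID1* was detected in 88.7% of mock-treated cells (87.1 to 90.1%) and 78.3% of DAC-treated cells (76.3 to 80.2%). At equal depth, the median *ID1* count was 7 UMIs (quartiles 4 and 11) per mock-treated cell and 3 UMIs (quartiles 1 and 5) per DAC-treated cell. Cells with 10 UMIs or more made up 31.2% of mock-treated and 7.04% of DAC-treated cells at this depth.

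*ID3* differed in the opposite direction. It had 8028 UMIs in mock-treated cells (160.8 CPM, 157.3 to 164.4) and 14297 UMIs in DAC-treated cells (242.1 CPM, 238.2 to 246.1), a ratio of 1.51 (1.46 to 1.55) that was below the 2-fold limit. The share of cells with a UMI was 68.1% in mock-treated and 70.8% in DAC-treated cells, with overlapping intervals of 65.9 to 70.2% and 68.6 to 72.9%. At equal depth, the shares were 58.3% (55.6 to 60.9%) and 66.0% (63.4 to 68.6%), and the intervals no longer overlapped. The highest count in a cell was 53 UMIs in mock-treated and 128 UMIs in DAC-treated cells.

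*ID2* had 4521 UMIs in mock-treated cells (90.6 CPM, 88.0 to 93.3) and 5026 UMIs in DAC-treated cells (85.1 CPM, 82.8 to 87.5). Its ratio of 0.940 (0.903 to 0.978) was close to 1, and the direction turned when CPM was averaged over cells, with a log2 ratio of 0.23 in place of -0.09. The shares of cells with a UMI, 54.0% and 53.7%, were within each other's intervals. At equal depth they were 42.1% (39.5 to 44.7%) and 38.0% (35.3 to 40.7%), each outside the interval of the other. *SMAD6* had 57 UMIs in mock-treated cells (1.14 CPM, 0.865 to 1.48) and 122 UMIs in DAC-treated cells (2.07 CPM, 1.72 to 2.47), a ratio of 1.81 (1.31 to 2.52) that passed the 2-fold limit without cells above 20% mitochondrial UMIs (log2 ratio 1.17). It was detected in 2.86% (2.14 to 3.74%) and 5.88% (4.83 to 7.09%) of the cells. At equal depth, 1.44% of mock-treated cells (0.882 to 2.22%) and 2.40% of DAC-treated cells (1.63 to 3.39%) had a UMI of *SMAD6*, and the intervals overlapped.

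**Figure D2:**
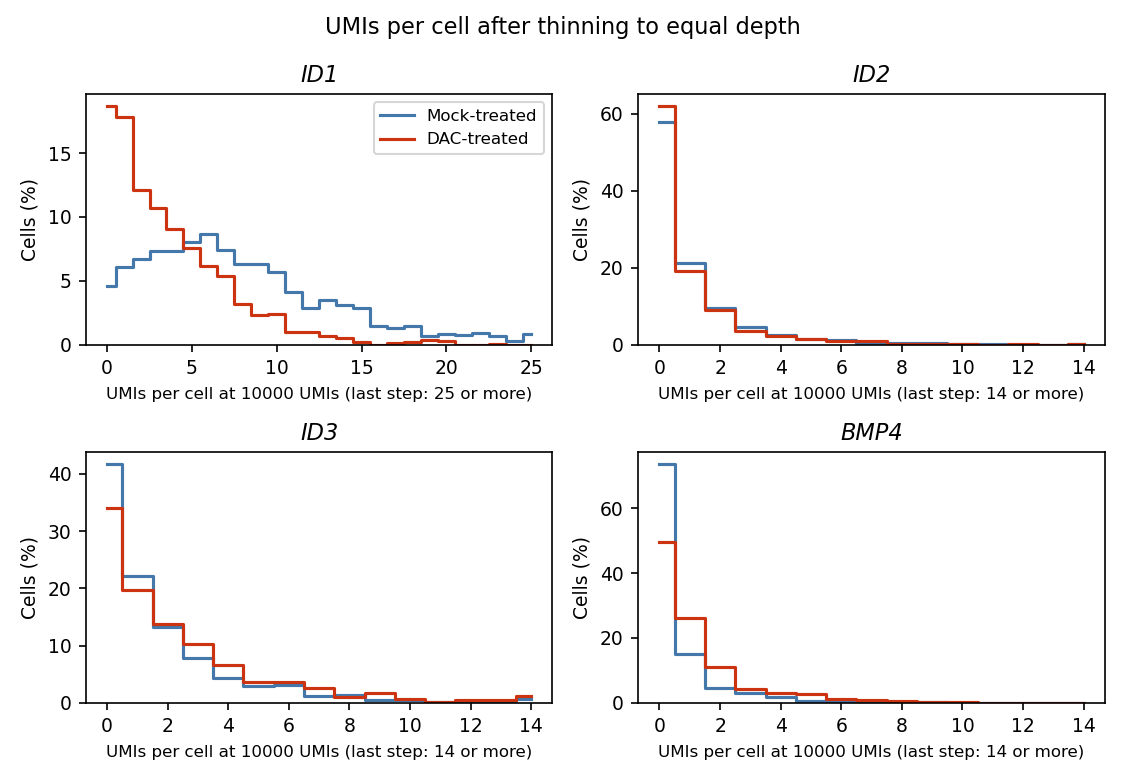
Share of cells (%, vertical axis) by the number of UMIs of *ID1*, *ID2*, *ID3*, and *BMP4* (horizontal axis) after thinning each cell to 10000 UMIs, in 1388 mock-treated (blue) and 1293 DAC-treated (red) cells. The *ID1* distribution of DAC-treated cells is shifted to fewer UMIs, with medians of 3 and 7 UMIs, while those of *ID2* nearly coincide and more DAC-treated cells have *BMP4*.

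The sum of the 4 target genes followed *ID1*. It was 49206 UMIs in mock-treated and 40194 UMIs in DAC-treated cells, a CPM ratio of 0.690 (0.681 to 0.700), and without *ID1* the ratio was 1.30. The target genes therefore had no common direction, and the sign of their sum was set by 1 gene. Among the UMIs of *ID1*, *ID2*, and *ID3* together, *ID1* accounted for 74.5% in mock-treated cells (74.1 to 74.9%) and 51.8% in DAC-treated cells (51.3 to 52.3%), *ID3* for 16.3% and 35.7%, and *ID2* for 9.20% and 12.5%. The same shift was present within cells. In cells with 10 UMIs or more of the 3 genes, *ID1* had a median share of 78.6% among the 1217 mock-treated and 54.1% among the 943 DAC-treated ones. *ID3* exceeded *ID1* in 51 mock-treated (4.19%, 3.14 to 5.47%) and 245 DAC-treated (26.0%, 23.2 to 28.9%) ones.

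Levels also depended on the total UMIs of a cell. The cells of each library were divided into 3 groups of equal size by their UMIs, which do not match in depth between the libraries, since the median cell of the group with the fewest had 7361 UMIs in mock-treated and 2179 UMIs in DAC-treated cells. *BMP4* was at 58.2, 62.2, and 36.5 CPM in mock-treated cells from the group with the fewest to that with the most UMIs, and at 58.8, 111.7, and 114.6 CPM in DAC-treated cells. With 1 limit for both libraries, in cells under 10000 UMIs with no more than 50% mitochondrial UMIs, *BMP4* was at 25.6 CPM (11.7 to 48.5) in 174 mock-treated and 50.6 CPM (34.1 to 72.2) in 312 DAC-treated cells, from 9 and 30 UMIs. For *ID1*, the values were 564.8, 877.6, and 677.8 CPM in mock-treated and 236.1, 391.0, and 338.9 CPM in DAC-treated cells, lower in DAC-treated cells in all 3 groups. For *ID3*, they were 157.9, 179.1, and 150.9 CPM against 117.3, 249.2, and 248.2 CPM. In the cells under 10000 UMIs, *ID1* was at 744.3 and 377.7 CPM and *ID3* at 179.0 CPM (137.5 to 229.0) and 244.5 CPM (206.3 to 287.7), the directions found over all cells. *ID2* did not keep its direction there and was higher in DAC-treated cells, at 108.0 CPM (76.4 to 148.2) and 192.2 CPM (158.6 to 230.9).

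**Figure D3:**
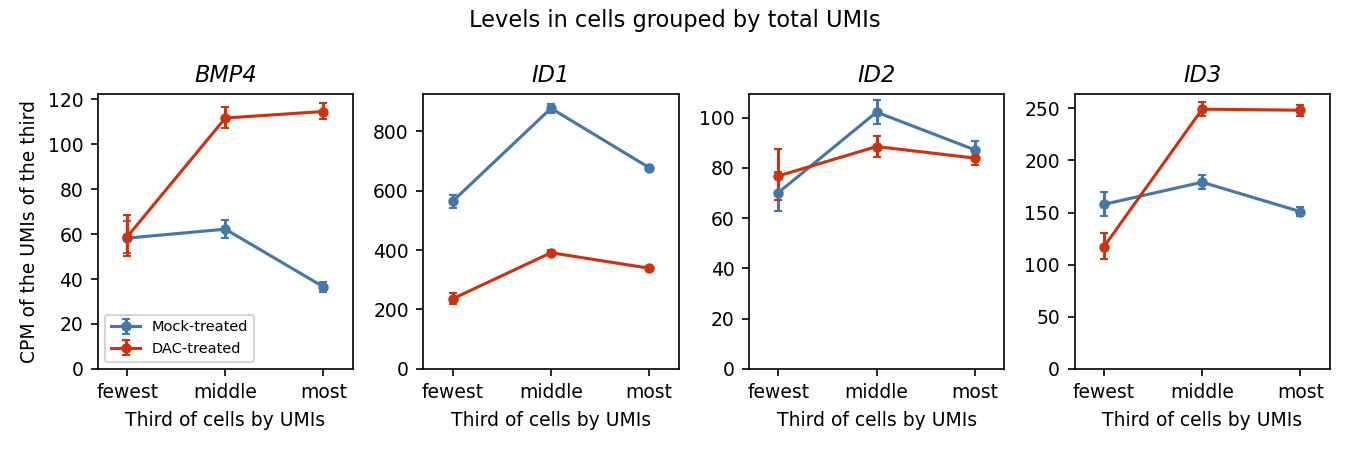
CPM of *BMP4*, *ID1*, *ID2*, and *ID3* (vertical axes from 0) in the cells of each library divided into 3 groups of equal size by total UMIs (horizontal axes), with exact Poisson 95% confidence intervals. *ID1* is lower in DAC-treated cells (red) in each group, and the groups with the fewest UMIs, where *BMP4* was at 58.2 and 58.8 CPM, differ in depth between the libraries (medians of 7361 and 2179 UMIs).

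*ID1*, *ID2*, *ID3*, and *BMP4* were lower in cells with mostly mitochondrial UMIs. CPM counts mitochondrial UMIs in its total, so choosing cells by these UMIs in itself tends to lower the CPM of other genes. In cells with more than 50% mitochondrial UMIs, *ID1* was at 186.1 CPM in mock-treated and 135.8 CPM in DAC-treated cells, *ID3* at 46.3 and 65.2 CPM, *BMP4* at 20.7 and 42.4 CPM, and *ID2* at 21.5 CPM (16.1 to 28.2) and 27.5 CPM (22.6 to 33.1), opposite in direction to *ID2* over all cells. When these cells and those with fewer than 10000 UMIs were left out, there remained 1298 cells of the mock-treated and 1120 cells of the DAC-treated library. In these, *BMP4* was at 48.4 and 116.6 CPM, *BMP7* at 5.12 and 10.3 CPM, *ID1* at 761.8 and 367.0 CPM, *ID2* at 94.1 and 88.2 CPM, *ID3* at 166.7 and 255.1 CPM, and *SMAD6* at 1.08 and 2.13 CPM. Each of the 6 genes differed in the same direction as over all cells.

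To examine whether cells with ligand transcripts differed in target transcripts, the same cells at 10000 UMIs were divided by the presence of a *BMP4* UMI. As a description of cells within 1 library, *ID1* averaged 8.63 UMIs (8.33 to 8.95) in 350 mock-treated cells with *BMP4* and 7.93 UMIs (7.75 to 8.11) in 948 without it. In DAC-treated cells, the averages were 4.18 UMIs (4.02 to 4.35) in 594 cells with *BMP4* and 3.60 UMIs (3.44 to 3.76) in 526 without it. For *ID1*, the difference between cells with and without *BMP4* was thus small beside that between the libraries, and DAC-treated cells with *BMP4* had fewer *ID1* UMIs than mock-treated cells without it. *ID3* averaged 2.28 and 1.56 UMIs in mock-treated cells with and without *BMP4*, and 2.68 and 2.41 UMIs in DAC-treated cells. For *ID2*, the averages were 1.26 and 0.900 UMIs in mock-treated cells and 0.956 and 0.869 UMIs in DAC-treated cells. Divided by *BMP7*, *ID1* averaged 7.93 and 8.13 UMIs in mock-treated and 3.87 and 3.91 UMIs in DAC-treated cells, with overlapping intervals, while *ID3* averaged 2.39 and 1.72 UMIs in mock-treated and 2.59 and 2.55 UMIs in DAC-treated cells. A secreted ligand also acts on neighboring cells, and these intervals cover counting error only.

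Among the genes that varied most like each ID gene between cells were the other ID genes. Pearson correlations of log2 (UMIs per 10000 UMIs + 1) were computed over the 1298 mock-treated and 1120 DAC-treated cells for all genes averaging at least 0.5 UMI per cell over all cells of each library, and genes were ranked by the lower of their correlations in the libraries. Among 5213 genes, *ID3* was first for *ID1* (r = 0.34 in mock-treated and 0.55 in DAC-treated cells), followed by *IER5L* (0.36 and 0.32), *ID2* (0.24 and 0.37), *MYL6* (0.16 and 0.16), and *MALL* (0.15 and 0.22). For *ID2*, the order was *ID3* (0.34 and 0.34), *ID1*, *RHOBTB3* (0.22 and 0.20), *ISG15* (0.18 and 0.18), and *IER5L* (0.17 and 0.19). For *ID3*, *ID1* and *ID2* were followed by *ISG15* (0.23 and 0.25), *CARHSP1* (0.21 and 0.22), and *RHOBTB3* (0.19 and 0.29). *BMP4* was not among these genes, with correlations of 0.08 and 0.11 to *ID1*, 0.14 and 0.09 to *ID2*, and 0.21 and 0.06 to *ID3*. The genes most like *BMP4* were *RNF43* (0.31 and 0.21), *ENC1* (0.29 and 0.20), *KITLG* (0.31 and 0.20), *TCF7L2* (0.24 and 0.17), and *SOX4* (0.44 and 0.17). The cells of a library share its depth and preparation, most of these correlations are weak, and they are given as a description.

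Other genes of the pathway were taken from lists and read against the same 22.8% and 7.86% of all genes. Of 14 other ligand genes of the BMP and GDF group, 5 reached 20 UMIs, 1 was called higher, and 1 lower. *GDF10*, also called BMP3B, had 2 UMIs in mock-treated and 45 UMIs in DAC-treated cells, a ratio of 19.0 with an interval of 4.97 to 161.9. This gene, the 1 called higher, reached 20 UMIs through DAC-treated cells, so its call followed from the filter. *GDF15*, a distant member of the superfamily known as a stress-induced gene and a p53 target, was the most abundant of them, and was 2.92-fold lower in DAC-treated cells (2.87 to 2.98), at 752.9 against 257.7 CPM. Of 10 other receptors and coreceptors, 9 reached 20 UMIs and 2 were called higher. *ENG*, the coreceptor endoglin, was at 0.481 and 7.42 CPM, and *ACVRL1*, the type I receptor ALK1 known from endothelial cells, at 0.561 and 1.96 CPM. Of the 4 endothelial markers, *PECAM1* was at 0 and 0.779 CPM and *VWF* at 0.120 and 1.05 CPM, while *CDH5* had 0 and 5 UMIs and *KDR* 5 and 2 UMIs, and their part in these values was not tested. The other 7 receptors and coreceptors were not called. *ACVR2B*, a type II receptor and the most abundant, was at 16.5 and 16.2 CPM, *BMPR1A* at 8.21 and 8.37 CPM, and *BMPR2* at 10.7 and 15.2 CPM.

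**Figure D4:**
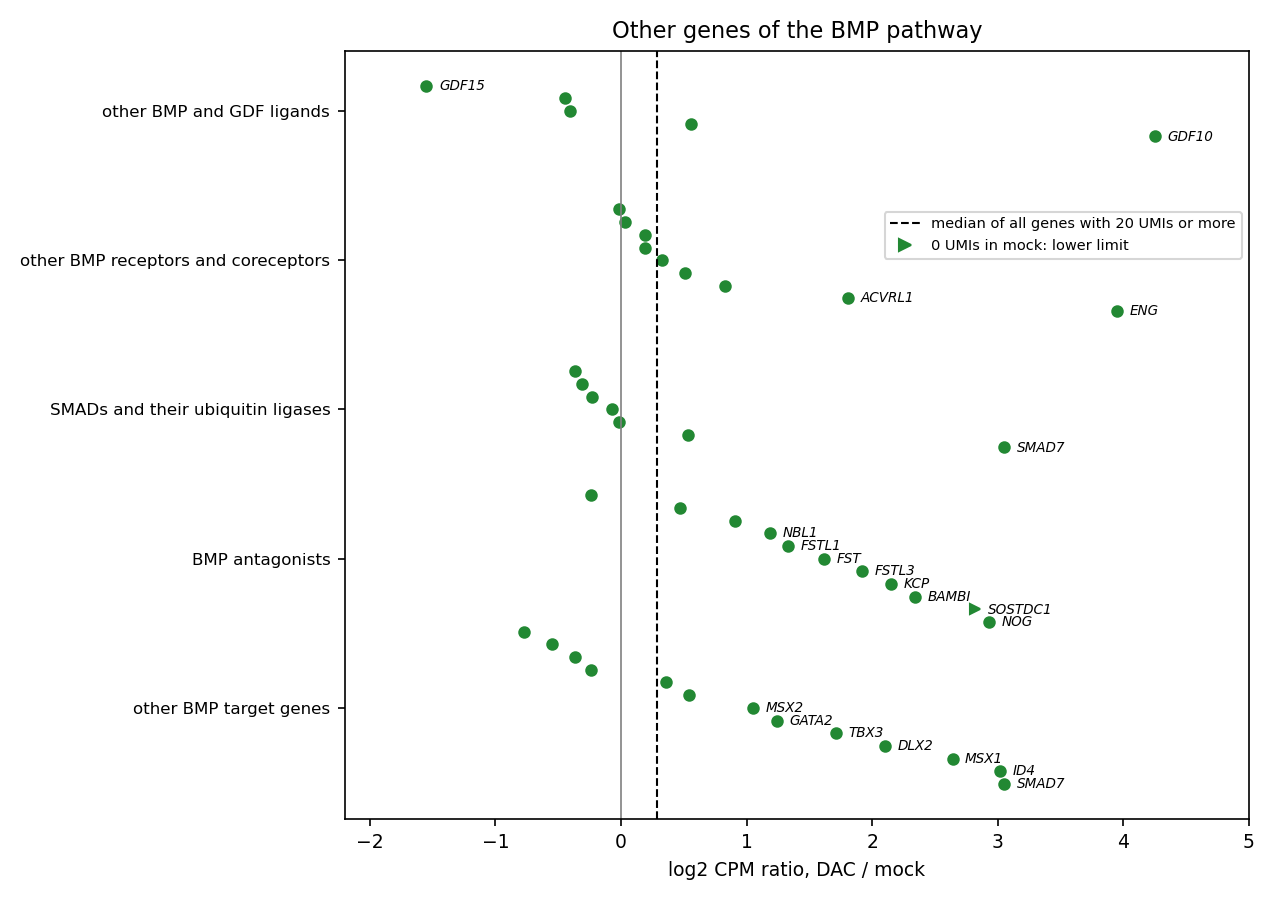
log2 CPM ratio (DAC-treated over mock-treated, horizontal axis) of the genes with 20 UMIs or more in 5 lists of BMP pathway genes (vertical axis), with the names of genes at 2-fold or more. The dashed line marks the median of all genes, 0.29, and most genes listed as antagonists lie to its right, up to *NOG* with 2.93.

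The SMAD genes that carry the signal were not called. *SMAD1* was at 12.0 and 9.65 CPM, *SMAD5* at 36.3 and 35.8 CPM, and *SMAD4* at 24.1 and 23.0 CPM. *SMURF2*, a ubiquitin ligase of receptors and SMADs with the most UMIs of this list, was at 140.7 and 119.6 CPM. Of its 7 genes, 1 was called, *SMAD7*, the second inhibitory SMAD, which was 8.30-fold higher in DAC-treated cells (5.79 to 12.3), at 0.661 and 5.49 CPM. Of 19 genes listed as antagonists, 11 reached 20 UMIs and 8 of these were called higher and none lower, with a median log2 ratio of 1.62 over the 11 genes. The list includes genes, *KCP* among them, that are not plain inhibitors of BMP signaling. *NOG*, which encodes noggin, a secreted inhibitor that binds BMP ligands, had 12 UMIs in mock-treated and 108 UMIs in DAC-treated cells, a ratio of 7.61 (4.18 to 15.2). *SOSTDC1*, a secreted inhibitor of BMP and WNT signaling, had 0 and 25 UMIs and was at least 7.04-fold higher. *BAMBI*, a pseudoreceptor without a kinase domain, was at 3.49 and 17.6 CPM (5.05-fold, 4.30 to 5.97), *KCP* at 1.44 and 6.38 CPM, and *NBL1*, the most abundant, had 1499 and 4045 UMIs (2.28-fold, 2.15 to 2.42). Genes with few UMIs in mock-treated cells reached 20 UMIs through DAC-treated cells, so these counts are descriptions of the lists.

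Of 14 target genes other than those above, 13 reached 20 UMIs, 7 were called higher and none lower, and the median log2 ratio was 1.05. *ID4*, the remaining gene of the ID family, had 19 UMIs in mock-treated and 182 UMIs in DAC-treated cells, a ratio of 8.10 (5.04 to 13.8), so that *ID1* and *ID4* differed in opposite directions. *MSX1*, a homeobox gene, was the most abundant of the list, at 119.3 and 744.7 CPM, a ratio of 6.24 (6.07 to 6.41). *DLX2*, another homeobox gene, was at 1.66 and 7.15 CPM, and *SMAD7*, which belongs to this list also, is given above. These genes are targets of other pathways too.

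**Figure D5:**
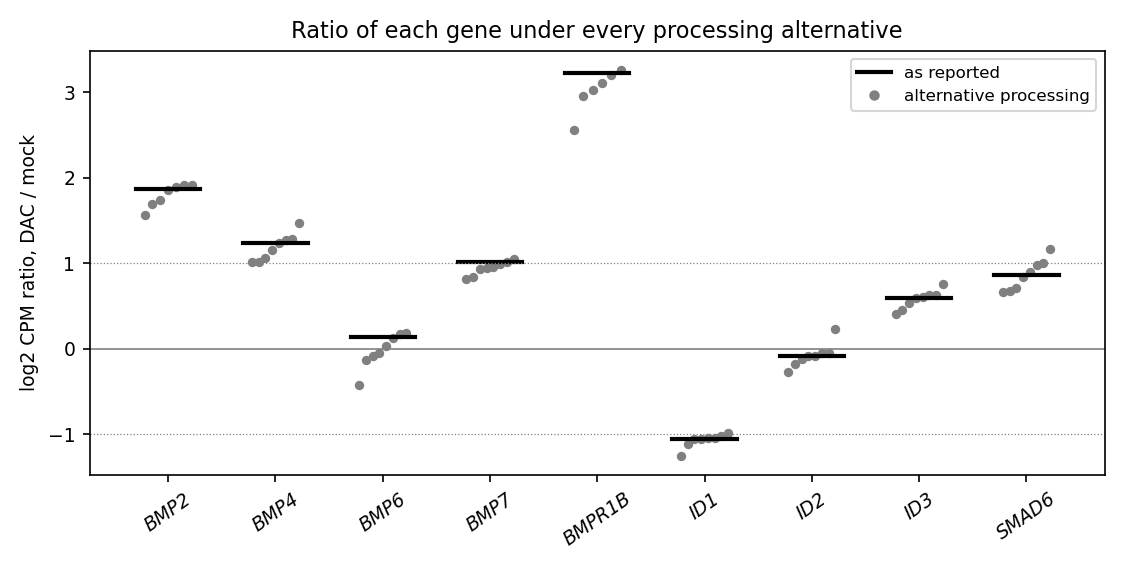
log2 CPM ratio (vertical axis) of the 9 genes with a ratio, as reported (black lines) and under each processing alternative (grey points), with dotted lines at 2-fold. *ID1* is between -1.25 and -0.99 and *BMP4* between 1.01 and 1.47, while *BMP6* and *ID2* lie on both sides of 0.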

How the data were processed

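The deposited tables held raw UMI counts per gene and cell, which the authors obtained from Chromium 3′ libraries by mapping to hg38 using Cell Ranger. The annotation release and filters on cells are not given in the sources used here. All deposited cells were used, and doublets were not called, since doublets of 1 cell line carry no marker. Genes were matched by name, with *CCN2* listed under its older symbol *CTGF*, and positions were taken from GENCODE release 44 by Ensembl identifier.

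Counts were summed per library and scaled to 1000000 UMIs. Poisson, binomial (Clopper-Pearson), and conditional intervals were exact, with 95% coverage of the counting error alone. A count of 0 was set to 3 counts over the library. Ratios between libraries with 3 counts or fewer in both were not given. The genes, the lists, and the choice of motifs were made with earlier results of these data known. The genes named from a list were its 4 with the largest ratio beyond 2-fold and its most abundant gene, and from cell correlations the 5 highest. Outside this rule, *BMPR1A*, *BMPR2*, *SMAD1*, *SMAD4*, *SMAD5*, *TCF12*, *TCF4*, *JUNB*, and single cell type markers were named after their values were seen. Median-of-ratios scaling used the 11152 genes with 100 UMIs or more in both libraries and lowered every log2 ratio by 0.18. Computations used Python 3.11.15, numpy 2.4.6, scipy 1.17.1, pandas 2.3.3, and matplotlib 3.10.9, and were tested on simulated data. Alternatives were other scalings, sets of cells, UMI filters, and fold limits, the mean of per-cell CPM, and thinning to 10000 UMIs per cell.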

Additional observations from a re-analysis of the deposited data

How the results depend on the processing

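No paired analysis was possible because each condition had 1 library. The log2 ratios of *BMP2*, *BMP4*, *BMP7*, *ID1*, *ID3*, and *SMAD6* kept their direction under each alternative that gave a value, and so did the limit for *BMPR1B*, from 2.56 to 3.26, for which thinning to 10000 UMIs and the mean of per-cell CPM gave none. *BMP6* ranged from -0.43 to 0.18 and *ID2* reached 0.23 with the mean of per-cell CPM. The number of the 10 genes called higher was 1 with thinning (*BMP4*), 5 at 1.5-fold (with *ID3* and *SMAD6*), and 1 at 4-fold (*BMPR1B*), in place of 3. It was 4 without a filter on UMIs (with *BMP2*). It was 2, *BMP4* and *BMPR1B*, with median-of-ratios scaling, without the 5% of cells with the most UMIs, and without shared barcodes. With averaged per-cell CPM, *BMP4* was called, and *BMPR1B* was counted only through its limit from the summed counts. With 100 UMIs or more, the 2 were *BMP4* and *BMP7*. Without cells with more than 20% mitochondrial UMIs the 2 were *BMP4* and *SMAD6*, with log2 ratios of 1.47 and 1.17. The number called lower was 0 without cells with more than 20% mitochondrial UMIs, where the log2 ratio of *ID1* was -0.99, and 0 at 4-fold.

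The summed ratio of the ligands and *BMPR1B*, 2.33, was 2.05 with median-of-ratios scaling, 2.68 without cells with more than 20% mitochondrial UMIs, 2.19 without the 5% of cells with the most UMIs, 1.99 with thinning, 2.02 when per-cell CPM was averaged, and 2.07 without *BMP4*. Under these alternatives in the same order, the summed ratio of the targets, 0.690, was 0.608, 0.725, 0.701, 0.650, and 0.706. It was 0.711 when scaled without mitochondrial genes, and it was reversed, to 1.30, without *ID1*. The median log2 ratio of the ligands and *BMPR1B* was 0.94 with median-of-ratios scaling, 0.95 without cells with more than 20% mitochondrial UMIs, and 0.93 when per-cell CPM was averaged, and that of the targets was 0.07, 0.32, and 0.38. The value of 0.95 is a median over *BMP4*, *BMP6*, and *BMP7* only, since *BMPR1B* was below 20 UMIs in those cells. In the value of 0.93, *BMPR1B* entered at its limit from the summed counts. Other causes of these shifts were not tested. Depth limits *BMP2*, *BMP3*, *BMP6*, and *BMPR1B*, each with fewer than 50 UMIs in a library.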

Other observations

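The TGF-β and activin branch of the superfamily was measured in the same libraries. Of 11 genes for ligands, receptors, and SMADs of this branch, all reached 20 UMIs over both libraries, 4 were 2-fold higher or more in DAC-treated cells, and none was 2-fold lower, beside 22.8% and 7.86% of all genes. *INHBB*, which encodes an activin subunit, had 12 UMIs in mock-treated and 236 UMIs in DAC-treated cells, a ratio of 16.6 (95% confidence interval 9.34 to 32.6). *INHBA* had 5 and 27 UMIs, and the latter were found in 6 cells. This gene reached 20 UMIs through DAC-treated cells, so its call, 1 of the 4, followed from the filter. *TGFBR3*, the coreceptor betaglycan, had 100 and 372 UMIs (3.14-fold, 2.52 to 3.96), and *TGFB3* was at 0.220 and 0.627 CPM. *SMAD2*, with the most UMIs of the branch, was at 49.9 and 52.8 CPM.

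Of 9 genes known as TGF-β targets, 5 were 2-fold higher or more and 1 lower, beside the same 22.8% and 7.86%. *TGFBI* had 0 UMIs in mock-treated and 83 UMIs in DAC-treated cells, through which alone it reached 20 UMIs, and was at least 23.4-fold higher, and *LTBP2* (6.04-fold, 4.23 to 8.87), *CCN2* (4.82-fold, 4.17 to 5.59), and *PMEPA1* (4.68-fold, 3.77 to 5.87) were also higher. *JUNB*, an AP-1 gene named after its value was seen, was the 1 that was lower, at 182.3 and 65.5 CPM, and *TIMP1*, the most abundant, was at 339.7 and 420.1 CPM. Of the E proteins that ID proteins bind, *TCF3* was at 39.8 and 58.5 CPM and *TCF12* at 22.5 and 18.5 CPM, neither of which reached the 2-fold limit, and *TCF4* had 1 and 10 UMIs.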
